A study of Trachinotus blochii with 22 samples.

Results

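The miR-17-92 cluster and its paralogues were followed in livers of the golden pompano, the marine food fish Trachinotus blochii, through low oxygen and its return. In vertebrates these miRNAs are cut from a few long transcripts that each carry several hairpins: the miR-17-92 transcript holds miR-17, miR-18a, miR-19a, miR-20a, miR-19b and miR-92a, and related transcripts hold miR-106a, miR-20b and miR-363, or miR-106b, miR-93 and miR-25. By the bases that pair with targets (the seed) they fall into 4 groups: miR-17 with miR-20, miR-93 and miR-106; miR-18; miR-19; and miR-92 with miR-25 and miR-363. In mammals the cluster is switched on by the transcription factor MYC and is known for its part in cell division, in blood cell and vessel growth, and in restraining the hypoxia factor HIF-1α. A change in the whole transcript would move all its miRNAs together, while a change in one hairpin would not.

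Members were taken by name: every table entry named, after its species prefix, miR-17, miR-18, miR-19, miR-20, miR-25, miR-92, miR-93, miR-106 or miR-363, with any letter, copy number or arm. The table has 2108 entries, of which 1400 are distinct when identical ones are counted once. Members made up 73 of the distinct entries, and 38 of these were among the 602 entries with at least 1 CPM (reads of an entry per fixed number of reads assigned in its library) in at least 2 libraries that were tested. The prefix names the species from which an entry was taken (hsa, human; dre, zebrafish; ola, medaka), not the fish sampled. Several of the 38 entries were near copies that may share reads, with log2 levels within 0.2 of each other in every library, so that they made up 20 near-copy groups. No sequence is printed, since none was held in the sources used here.

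The 22 libraries were small RNA libraries of liver sampled in 8 groups: normoxia 0 h with 2 libraries, normoxia 12 h with 3, hypoxia 0 h with 3, hypoxia 12 h with 3, rapid reoxygenation 3 h with 3, rapid reoxygenation 12 h with 2, and gradual reoxygenation with 3 at 3 h and 3 at 12 h. The labels name no drug and no genetic change, and give no oxygen level, no age and no statement of whether a library is 1 fish, so that p-values measure the spread between these libraries only. No column of the table names normoxia, hypoxia, rapid or gradual: columns were assigned to groups by the time and letters in their names and by how many libraries each group has. Rapid and gradual reoxygenation were told apart only by their 2 and 3 libraries at 12 h, and their columns at 3 h by the same letters, so that every comparison of them rests on this. The columns taken as normoxia 0 h carry no time and were also assigned by their number. Libraries held 17.5 to 33.8 M assigned reads, so that 3 reads were worth 0.0888 to 0.172 CPM. The hepatocyte marker miR-122 was high throughout, at 37563 to 109912 CPM. Library 2 of normoxia 0 h stood apart, with the lowest miR-122 level and the highest miR-143 level, a miRNA of smooth muscle and stroma, at 65322 CPM against a median of 20286 CPM over all libraries. The other stromal markers were mixed there. miR-145 was at its highest (213 CPM, median 58.6 CPM) and miR-214 above its median (107 CPM, median 66.3 CPM). miR-199 was at its lowest (858 CPM, median 1892 CPM).

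Of all 38 tested members, 0 passed the threshold in any of the 16 tests made, which were 13 comparisons of groups, 2 tests of a difference between comparisons and 1 test over the 8 groups (limma on log2(CPM + 1), adjusted p under 0.05). The smallest adjusted p of any member was 0.210, that of the low entries mze-miR-18b and oni-miR-18b in gradual reoxygenation 3 h against hypoxia 0 h. Among the abundant members, hsa-miR-19b-3p, aca-miR-19a-3p, dre-miR-19d-3p and dre-miR-93 were higher in every library of gradual reoxygenation 12 h than in any of hypoxia 12 h, and the libraries of the other 6 overlapped. In that comparison the libraries did not overlap for 9 of 38 members in this direction and for 11 in the other, the latter all low entries, beside 23.8% of all entries in either direction. The difference of miR-19b and miR-19a was called by 1 alternative tool, DESeq2, and not by limma or edgeR.

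The family was led by miR-25, a miRNA of the miR-106b-25 transcript that in human cells limits the cell cycle inhibitor p57. hsa-miR-25-3p had a mean of 633 CPM over the 22 libraries, and its lowest, median and highest libraries held 368, 644 and 904 CPM. It ranked only 84th among the 602 tested entries by mean level. It was followed by hsa-miR-92a-3p at 282 CPM and sha-miR-92a at 248 CPM, entries of the miRNA that in mouse and human vessel cells restrains vessel growth. CPM is not scaled for length, but mature miRNAs are of nearly the same length, so that length alters such a ranking little. How evenly different miRNAs were captured and assigned to entries was not measured, so that the order is one of table values only.

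In the miR-17 seed group, hsa-miR-20a-5p had a mean of 195 CPM, dre-miR-17a-5p of 77.2 CPM, ola-miR-106a of 63.6 CPM and dre-miR-93 of 41.0 CPM. miR-17 and miR-20a are the members reported in human cells to lower HIF-1α. The miR-19 group, which in mouse lymphoma carries most of the tumour-promoting action of the cluster, was represented by hsa-miR-19b-3p at 137 CPM, dre-miR-19d-3p at 124 CPM and aca-miR-19a-3p at 9.64 CPM. All other near-copy groups lay at or below 3.31 CPM. miR-18a, which sits between miR-17 and miR-19a in the cluster, reached a mean of only 3.31 CPM (gga-miR-18a-5p), and dre-miR-17a-5p, encoded beside it, was at 77.2 CPM.

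**Figure D1:**
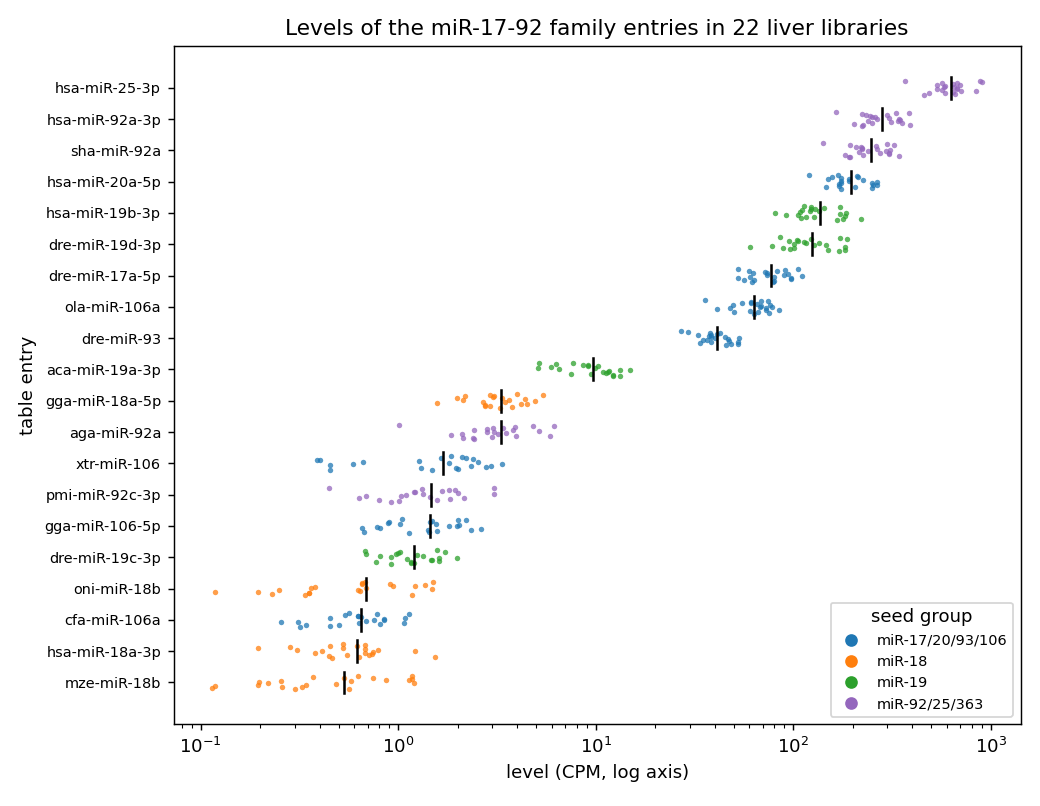
Level in CPM (log axis) of the 20 near-copy groups of tested members, each shown by its most abundant entry, in the 22 libraries (points) with the mean over libraries (bar), coloured by seed group. The entries split into 10 that average 9.64 CPM or more and 10 at 3.31 CPM or less, and the miR-18 entries are all among the low ones.

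By number of entries, the miR-17, miR-20, miR-93 and miR-106 seed group had 28 rows, 24 distinct and 14 tested, and the miR-18 group 14, 8 and 5. The miR-19 group had 24, 18 and 9, and the miR-92, miR-25 and miR-363 group 40, 23 and 10. The 35 distinct members that were not tested were low: the highest of them, xla-miR-18b-3p, reached 36 reads in 1 library and 282 in all. miR-363, the last hairpin of the miR-106a-363 transcript in mammals, was listed under 1 distinct entry, bta-miR-363, with at most 2 reads in a library and 6 in all 22. The entry bta-miR-20b, of the same transcript, had at most 2 reads in a library and 7 in all. cpi-miR-106b-5p and mmu-miR-106b-5p had 11 and 10 reads in all, although miR-25 and miR-93, which share a transcript with miR-106b in mammals, were abundant.

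In most of the 6 pairs of arms compared, 1 arm carried nearly all reads. Most pairs join entries of different species. miR-17, miR-92, miR-93 and miR-106 had no entries named for both arms, so that their arms were not compared. Over all libraries, hsa-miR-25-3p had 369552 reads and hsa-miR-25-5p 115, a ratio of 3214. The ratio was 3198 for hsa-miR-20a-5p over gmo-miR-20a-2-3p, 1089 for dre-miR-19d-3p over gmo-miR-19d-5p, 722 for hsa-miR-19b-3p over dre-miR-19b-5p and 51.9 for hsa-miR-19a-3p over dre-miR-19a-5p. For miR-18a the ratio of gga-miR-18a-5p to hsa-miR-18a-3p was 5.49, from 1934 and 352 reads. The major arm was the higher in 22 of 22 libraries for each of these 6 pairs. An arm whose sequence in pompano differs from the entry of another species can be undercounted, and the part of this in the ratios was not tested.

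The median spread of the members between libraries was below that of all tested entries. The SD of log2(CPM + 1) over the 22 libraries had a median of 0.34 over the 38 tested members, with a range of 0.22 to 0.53, beside a median of 0.42 and a range of 0.17 to 2.95 over all 602 tested entries. With a mean of at least 10 CPM, it was 0.32 over 17 member entries and 0.41 over 320 entries. These are descriptions, and near copies count more than once in them. The added 1 in log2(CPM + 1) also shrinks the spread of low entries. cfa-miR-106a, which had the lowest SD of the members, ran from 0.255 to 1.13 CPM. Among the 10 abundant groups, those with a mean of at least 5 CPM, the group with the highest mean exceeded that with the lowest by 1.23 times for dre-miR-17a-5p, 1.33 times for hsa-miR-25-3p, 1.34 times for hsa-miR-92a-3p, 1.59 times for hsa-miR-20a-5p, 1.74 times for hsa-miR-19b-3p and 2.07 times for aca-miR-19a-3p.

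In some single libraries most or all of the 10 abundant members, hsa-miR-92a-3p and sha-miR-92a both counted, stood on the same side of their median. The share of all tested entries on that side was not computed. The part of a shift of the whole library in these counts was not tested. In library 2 of normoxia 0 h all 10 were below their median over the 22 libraries, 7 had their lowest level there, and the median deviation was -0.57 on the log2 scale. In libraries 1 and 2 of rapid reoxygenation 3 h 0 of 10 were below their median, with median deviations of 0.39 and 0.29. In library 3 of the same group 9 of 10 were below it, with a median deviation of -0.22, so that libraries of 1 group stood on both sides. The rms deviation of all tested entries in library 2 of normoxia 0 h was 1.34, beside 0.34 to 0.87 in the other libraries, so that it departed in the table as a whole and not in this family alone.

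Hypoxia was compared with normoxia at each time to ask whether low oxygen moved the family. At 0 h, 0 of 38 members passed, with 0 at an unadjusted p under 0.05, and 0.498% of all tested entries passed. The 10 abundant members differed by -0.21 (dre-miR-19d-3p) to 0.35 (dre-miR-93) on the log2 scale. hsa-miR-25-3p was at 642, 533 and 699.7 CPM in the 3 hypoxia libraries and at 368 and 879 CPM in the 2 normoxia libraries. The hypoxia values lay between the normoxia values, and the difference of 0.13 had a 95% interval of -0.51 to 0.76 (limma, adjusted p = 0.961). The smallest p of the comparison was that of mdo-miR-106-5p, at -0.86 (SE 0.43, adjusted p = 0.632), with the near copy xtr-miR-106 at the same difference. Neither passed. Without library 2 of normoxia 0 h, which left library 3 alone in its group, this difference was -0.91.

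xtr-miR-106 was a low entry, at 0.389, 0.404 and 1.28 CPM under hypoxia 0 h and 1.86 and 2.10 CPM under normoxia 0 h. It was also uneven within groups, at 3.37, 0.593 and 0.450 CPM in rapid reoxygenation 3 h. miR-106 belongs to the miR-17 seed group and is the first hairpin of the mammalian paralogue transcripts. The abundant entry of the same number, ola-miR-106a, was at 55.2, 65.4 and 49.5 CPM under hypoxia 0 h and 35.6 and 68.9 CPM under normoxia 0 h, and these groups overlapped.

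At 12 h, 0 of 38 members passed, 0 had an unadjusted p under 0.05, and 0.664% of all tested entries passed. Of the abundant members, 9 of 10 differed by -0.21 to 0.16, and miR-19b stood apart from them. hsa-miR-19b-3p was at 136, 109 and 80.7 CPM under hypoxia and 174, 143 and 129.5 CPM under normoxia. The groups overlapped in 1 library each, and the difference of -0.47 had a 95% interval of -1.03 to 0.09 (adjusted p = 0.997). The smallest p was that of its near copies cfa-miR-19b (-0.48, SE 0.27, adjusted p = 0.997) and ola-miR-19b (-0.47), which did not pass. miR-17 and miR-20a, the members tied to HIF-1α in human cells, differed by 0.16 (dre-miR-17a-5p, interval -0.49 to 0.81) and 0.04 (hsa-miR-20a-5p, interval -0.50 to 0.57). Of the 19 cell type markers tested, hepatocyte miR-122 included, 1 passed at each time, the red blood cell miRNA ola-miR-144, at 2.21 at 0 h (adjusted p = 0.0273) and -2.40 at 12 h (adjusted p = 0.00214).

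The hypoxia effect at 12 h was tested against that at 0 h directly. Of the members, 0 of 38 passed, 0 had an unadjusted p under 0.05, and 0.997% of all entries passed. The nearest was gga-miR-18a-5p, with a difference between effects of 0.80 (SE 0.44, adjusted p = 0.764), and its near copy ipu-miR-18a had the same value. gga-miR-18a-5p was at 3.04, 3.35 and 1.99 CPM under hypoxia 0 h and 4.0 and 5.38 CPM under normoxia 0 h, and at 4.38, 3.64 and 2.13 CPM under hypoxia 12 h and 2.91, 2.18 and 3.07 CPM under normoxia 12 h. At 12 h the groups overlapped. In the same test the red blood cell markers ola-miR-144 (-4.61, adjusted p = 0.000111) and chi-miR-451-5p (-3.26, adjusted p = 0.0498) passed, and their part in the miR-18a values was not tested.

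**Figure D2:**
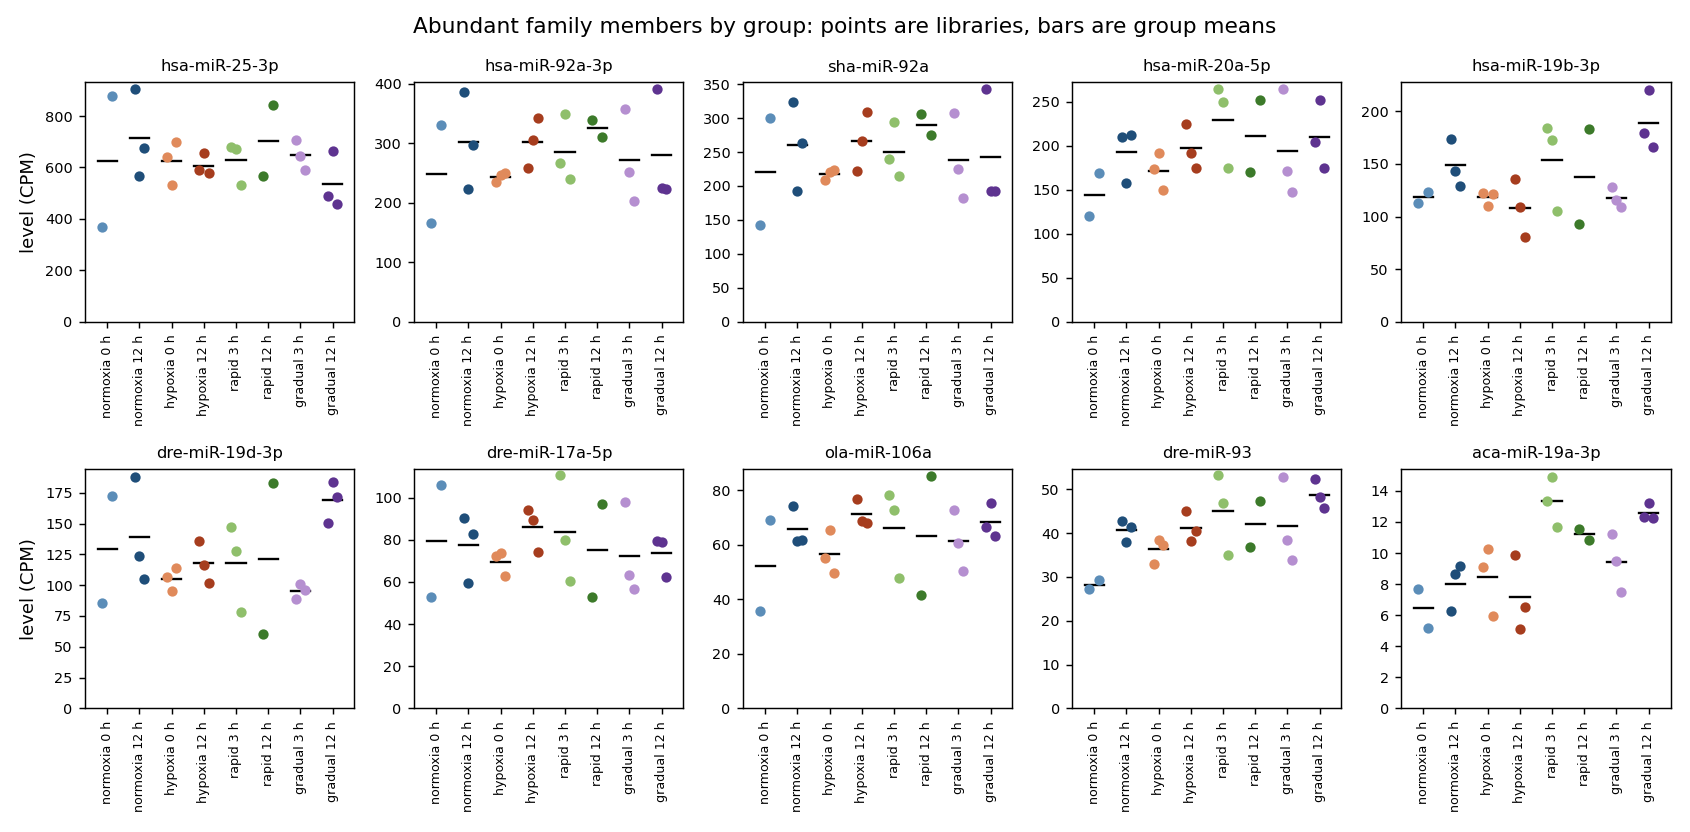
Level in CPM (axis from 0) of the 10 abundant members in the 8 groups, with 1 point per library and the group mean as a bar. Most groups overlap in most panels. hsa-miR-19b-3p and dre-miR-19d-3p have their highest group mean in gradual reoxygenation 12 h (189 and 169 CPM), and the libraries of normoxia 0 h lie far apart for hsa-miR-25-3p (368 and 879 CPM).

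The controls and the hypoxia samples were each compared over time. Between normoxia 12 h and 0 h, 0 of 38 members passed, beside 4.82% of all entries. An unadjusted p under 0.05 was found for 21.9% of all entries and for 1 member. This was dre-miR-93, which was at 42.7, 37.9 and 41.3 CPM at 12 h and 27.2 and 29.2 CPM at 0 h, groups that did not overlap. The difference was 0.51 (interval 0.02 to 1.00, adjusted p = 0.220), and the next smallest p was that of gga-miR-18a-5p (-0.61, SE 0.33, adjusted p = 0.312). The authors' deposited mean for normoxia 0 h, which does not equal the mean of the libraries used, was 39.3 CPM for dre-miR-93, beside a mean of 28.2 CPM over the 2 libraries used and of 40.6 ± 2.45 CPM (SD, n = 3) at 12 h. Groups did not overlap for 7 of the 38 members (5 higher, 2 lower), beside 26.1% of all entries.

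In the same comparison, the hepatocyte marker miR-122, the red blood cell markers miR-451 and miR-144, the epithelial markers miR-200a and miR-141 and the stromal marker miR-143 passed. The stromal markers differed in direction, at -1.46 for miR-143, -1.26 for miR-145, -0.84 for miR-214 and 0.67 for miR-199. The summed red blood cell markers were at 823 to 2313 CPM in normoxia 0 h and 7175 to 13971 CPM in normoxia 12 h, and the part of cell makeup in the dre-miR-93 values was not tested. In bulk liver, fewer cells of a type and less RNA per cell cannot be told apart. Leaving out library 3 of normoxia 0 h left library 2, which stands apart, alone in its group. No calls are given for that fit, since a lone library shows no spread of its own. With library 2 left out and library 3 kept, the difference of dre-miR-93 was 0.46.

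Between hypoxia 12 h and 0 h, 0 of 38 members and 0% of all tested entries passed. An unadjusted p under 0.05 was found for 5.48% of all entries and for 2 members. These were mze-miR-18b (-0.62, SE 0.22, adjusted p = 0.772) and oni-miR-18b (-0.56, SE 0.26, adjusted p = 0.772). Groups did not overlap for 15 of 38 members, 13 of them higher at 12 h, beside 23.1% of all entries in either direction. The 13 were near copies of 6 groups: dre-miR-17a-5p, ola-miR-106a, gga-miR-106-5p, cfa-miR-106a, hsa-miR-92a-3p and aga-miR-92a. For hsa-miR-92a-3p the values were 259, 306 and 342 CPM at 12 h and 235, 246 and 249.5 CPM at 0 h, and for ola-miR-106a they were 76.7, 68.7 and 68.0 CPM and 55.2, 65.4 and 49.5 CPM. The other abundant miR-92a entry, sha-miR-92a, overlapped, at 222.5 to 309 CPM at 12 h and 208 to 223.4 CPM at 0 h. In the aga-miR-92a group the near copies cin-miR-92b-3p, sko-miR-92a and ola-miR-92b overlapped too. The median over the 38 members was 0.28 beside -0.05 over all 602 entries.

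Reoxygenation at 3 h was compared with hypoxia 0 h, taken as its starting point, which the labels do not state. At 3 h of rapid reoxygenation, 0 of 38 members passed, and 0% of all entries did. The smallest p was that of hsa-miR-19a-3p (0.63, SE 0.26, adjusted p = 0.999), with its near copy aca-miR-19a-3p at 0.63. aca-miR-19a-3p was at 13.3, 14.9 and 11.7 CPM after rapid reoxygenation and 9.11, 10.3 and 5.94 CPM under hypoxia 0 h, and the groups did not overlap. All 10 abundant members, both miR-92a entries counted, had a difference above 0 here, from 0.01 (hsa-miR-25-3p) to 0.63. Their median was 0.22, beside -0.02 over all entries. All 10 were also above 0 between the controls, normoxia 12 h against 0 h, with a median of 0.31 beside -0.06 over all entries. Groups did not overlap for 3 of 38 members, beside 13.1% of all entries.

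At 3 h of gradual reoxygenation, 0 of 38 members and 0% of all entries passed. Of the members 4 had an unadjusted p under 0.05, beside 14.8% of all entries. The smallest was that of mze-miR-18b, a low entry of the miR-18 group, at 0.118, 0.258 and 0.326 CPM after gradual reoxygenation and 1.17, 1.13 and 0.865 CPM under hypoxia 0 h. In reads these were 3, 8 and 11 against 30, 28 and 23, and the groups did not overlap. The difference was -0.74 (interval -1.19 to -0.28, adjusted p = 0.210), and that of oni-miR-18b was -0.77 (adjusted p = 0.210). The summed red blood cell markers were at 9458 to 12791 CPM after gradual reoxygenation and 2674 to 4849 CPM under hypoxia 0 h, and the pancreatic acinar markers at 38.3 to 1378 CPM and 2290 to 3483 CPM. Neither sum overlapped. In the same order, the epithelial sum was at 951 to 1439 CPM and 1661 to 2889.5 CPM. The stromal sum was at 16461 to 19263.5 CPM and 24923.5 to 36708 CPM, and that of striated muscle at 24.8 to 27.7 CPM and 65.9 to 195 CPM. These did not overlap either, while the hepatocyte and leukocyte sums did. Of the markers 0 of 19 passed, and the part of these cell types in the miR-18 values was not tested. At this depth log2(CPM + 1) understates the ratio, which was -2.13 on the log2 scale in edgeR for mze-miR-18b. The most abundant miR-18 entry, gga-miR-18a-5p, itself low, was at 4.17, 2.74 and 2.93 CPM and 3.04, 3.35 and 1.99 CPM, which overlapped. Groups did not overlap for 8 of 38 members, beside 31.6% of all entries.

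Gradual was compared with rapid reoxygenation at each time, which is the contrast of the study's title. At 3 h, 0 of 38 members and 0% of all entries passed, and 0 members had an unadjusted p under 0.05. The smallest p were those of pmi-miR-92c-3p (0.56, SE 0.30, adjusted p = 0.590) and hsa-miR-19a-3p (-0.47, SE 0.26, adjusted p = 0.605). Of the abundant members, 9 of 10 had a difference below 0, with a median of -0.16 beside -0.01 over all entries. The remaining one, hsa-miR-25-3p, had a difference of 0.05 (interval -0.52 to 0.62). hsa-miR-20a-5p was at 264, 171 and 147 CPM under gradual and 265, 249.7 and 175 CPM under rapid reoxygenation, and the values overlapped.

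At 12 h, again 0 of 38 members and 0% of all entries passed, and 0 members had an unadjusted p under 0.05. ola-miR-19b and aca-miR-19b had the smallest p, with a difference of 0.52 for both (SE 0.30, adjusted p = 0.796). hsa-miR-19b-3p was at 179, 221 and 166 CPM under gradual and 92.5 and 184 CPM under rapid reoxygenation, so that library 2 of rapid reoxygenation lay inside the gradual range and library 1 below it. Without library 1 of rapid reoxygenation the difference was 0.03, and without library 2 it was 1.01, so that it rested on which of the 2 libraries was kept. The authors' deposited mean of rapid reoxygenation 12 h, which again differs from the mean of the libraries used, was 105 CPM for hsa-miR-19b-3p, beside 138 CPM over the 2 libraries used. hsa-miR-25-3p differed by -0.38 (interval -1.02 to 0.26) and hsa-miR-20a-5p by 0.01 (interval -0.60 to 0.61).

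After 12 h of gradual reoxygenation, miR-19b stood above hypoxia 12 h. hsa-miR-19b-3p was at 179, 221 and 166 CPM after gradual reoxygenation and 136, 109 and 80.7 CPM under hypoxia, and the groups did not overlap. The difference was 0.81 (interval 0.25 to 1.37), but the adjusted p over all 602 entries was 0.401, and ola-miR-19b and aca-miR-19b, which had the smallest p of the comparison, had the same difference and adjusted p. aca-miR-19a-3p, at 12.3, 13.2 and 12.3 CPM against 9.87, 5.10 and 6.55 CPM, differed by 0.77 (interval 0.22 to 1.33, adjusted p = 0.401), again with no overlap. dre-miR-19d-3p was at 151, 184 and 172 CPM against 136, 117 and 101 CPM, which did not overlap either. In all, 0 of 38 members and 0% of all entries passed. An unadjusted p under 0.05 was found for 8 of 38 members (4 of 20 near-copy groups), beside 9.8% of all entries.

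Of the abundant members of the other seed groups, dre-miR-93 alone did not overlap, at 52.3, 48.2 and 45.8 CPM after gradual reoxygenation and 44.9, 38.2 and 40.4 CPM under hypoxia. hsa-miR-20a-5p was at 205, 252 and 174 CPM after gradual reoxygenation and 225, 192 and 175 CPM under hypoxia, and dre-miR-17a-5p at 79.6, 78.8 and 62.2 CPM and 94.2, 89.5 and 74.1 CPM. Both overlapped. Low entries of the miR-92 and miR-106 numbers stood on the other side: aga-miR-92a was at 2.40, 2.14 and 2.41 CPM against 3.81, 5.14 and 3.05 CPM, with no overlap. Groups did not overlap for 20 of 38 members, 9 higher and 11 lower, or 4 near-copy groups in each direction, beside 23.8% of all entries. The median over the members was -0.16 and over all entries -0.11.

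The call for miR-19 differed between tools, and what decided it was not tested. On the reads recovered from the table, DESeq2 called 6 of 38 members higher in gradual reoxygenation 12 h than in hypoxia 12 h, beside 2.89% of all entries. They were the 4 near copies of miR-19b (hsa-miR-19b-3p at 0.94, adjusted p = 0.00311) and the 2 of miR-19a (aca-miR-19a-3p at 0.95, adjusted p = 0.0430). edgeR's quasi-likelihood test called 0 of 38 and gave hsa-miR-19b-3p 0.80 (adjusted p = 0.239). Under the TMM scaling the limma difference was 0.99 (adjusted p = 0.0741). That scaling moved the median of all entries by 0.12 to 0.18 in the 4 comparisons of gradual reoxygenation 12 h, and quantile normalization moved a median by at most 0.17. The leukocyte markers summed to 49.4 to 73.8 CPM in gradual reoxygenation 12 h and 58.1 to 87.9 CPM in hypoxia 12 h, and the red blood cell markers to 863 to 4501 CPM and 2534 to 4031 CPM. Both ranges overlapped, and their part in the miR-19 values was not tested.

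**Figure D3:**
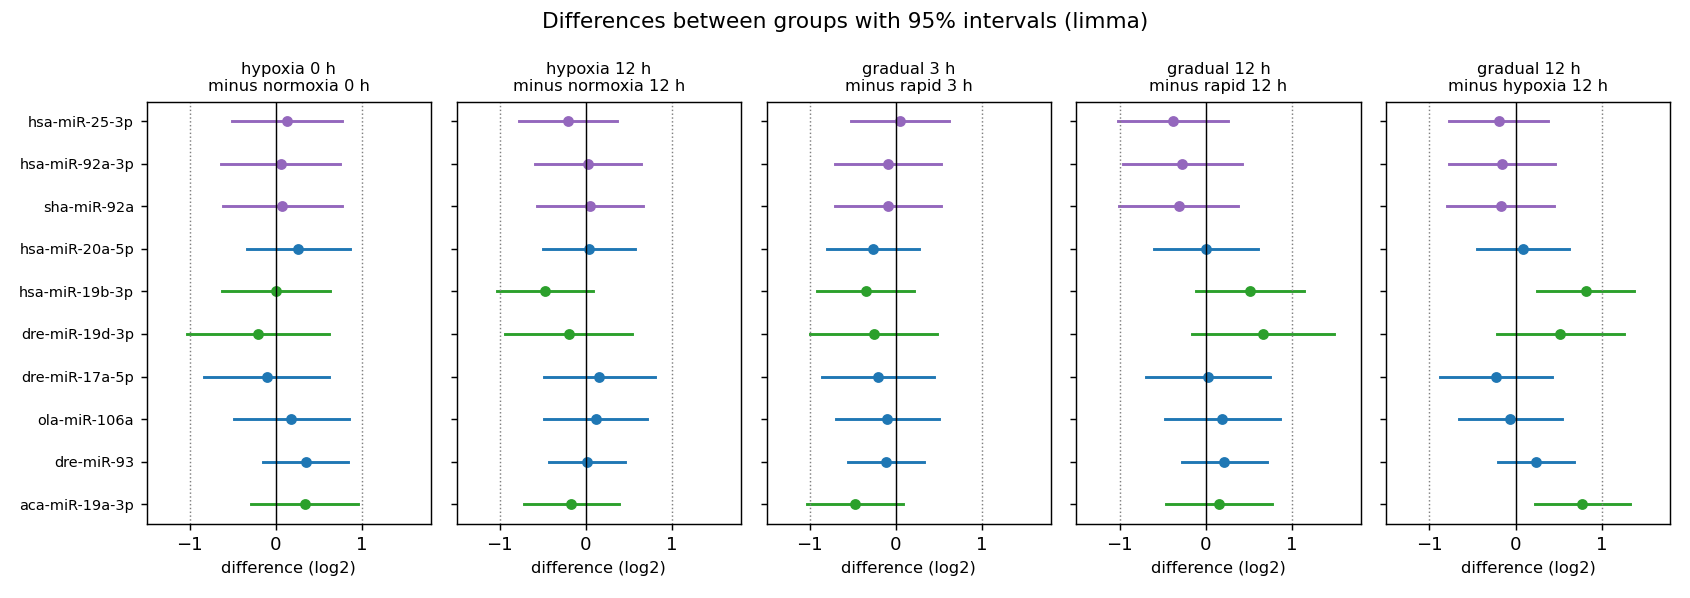
Difference in log2(CPM + 1) between groups for the 10 abundant members, with 95% intervals from limma, in 5 comparisons; colours are the seed groups of the plot of levels (purple, the group of miR-92 and miR-25; blue, that of miR-17; green, miR-19) and dotted lines mark a 2-fold difference. In gradual reoxygenation 12 h minus hypoxia 12 h, hsa-miR-19b-3p (0.81) and aca-miR-19a-3p (0.77) have intervals that leave out 0, and no member passed the adjusted threshold.

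Within gradual reoxygenation, 12 h was compared with 3 h, and the miR-19 entries again had the smallest p. hsa-miR-19b-3p was at 128, 116 and 109 CPM at 3 h and 179, 221 and 166 CPM at 12 h, a difference of 0.67 (SE 0.27, adjusted p = 0.211). ola-miR-19b and aca-miR-19b had the smallest p, at 0.67 each (adjusted p = 0.211). dre-miR-19d-3p was at 88.7, 101 and 96.4 CPM at 3 h and 151, 184 and 172 CPM at 12 h, the difference of 0.81 having an interval of 0.07 to 1.55 (adjusted p = 0.268). Neither overlapped between times. Of 38 members 0 passed, beside 1.83% of all entries, and 6 had an unadjusted p under 0.05, beside 16.8% of all entries. DESeq2 called 6 (4 of miR-19b and 2 of miR-19d), beside 9% of all entries. Groups did not overlap for 18 of 38 members, 8 higher and 10 lower, beside 29.6% of all entries. The red blood cell markers summed to 9458 to 12791 CPM at 3 h and 863 to 4501 CPM at 12 h, and miR-451 passed in this comparison. Of the leukocyte markers, miR-142 passed (-1.78). miR-223 (-0.66) and miR-155 (-0.31) were lower and miR-150 (0.41) was higher, and these did not pass. The leukocyte sum was 74.9 to 96.1 CPM at 3 h and 49.4 to 73.8 CPM at 12 h. The epithelial sum was 951 to 1439 CPM at 3 h and 1811 to 2648 CPM at 12 h. That of striated muscle was 24.8 to 27.7 CPM at 3 h and 38.8 to 64.5 CPM at 12 h. Neither of these overlapped, while the hepatocyte, pancreatic acinar and stromal sums did. The part of these cell types in the miR-19 values was not tested.

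Whether gradual and rapid reoxygenation differed more at 12 h than at 3 h was tested directly. 0 of 38 members and 0.166% of all entries passed, and 4 members had an unadjusted p under 0.05, beside 10.5% of all entries. The 4 were the near copies of miR-19b, led by ola-miR-19b and aca-miR-19b at 0.87 each (SE 0.40, adjusted p = 0.460). DESeq2 called these 4, beside 5.26% of all entries, with hsa-miR-19b-3p at 1.07 (adjusted p = 0.0344). In limma the value of hsa-miR-19b-3p was 0.38 without library 1 of rapid reoxygenation 12 h and 1.36 without library 2.

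Both forms of reoxygenation at 12 h were set against normoxia 12 h, with the same 3 normoxia libraries in each. For rapid reoxygenation 0 of 38 members and 0% of all entries passed, and 0 members had an unadjusted p under 0.05. hsa-miR-19a-3p and aca-miR-19a-3p had the smallest p, at 0.45 each (SE 0.29, adjusted p = 0.977). For gradual reoxygenation 0 members passed, beside 1.66% of all entries. An unadjusted p under 0.05 was found for 10.6% of all entries and for 2 members. These were aca-miR-19a-3p (0.61, SE 0.26, adjusted p = 0.391) and hsa-miR-19a-3p (0.60, adjusted p = 0.391). aca-miR-19a-3p was at 12.3, 13.2 and 12.3 CPM after gradual and 11.6 and 10.9 CPM after rapid reoxygenation, and at 6.27, 8.65 and 9.15 CPM in normoxia. The normoxia values lay below those of both. The red blood cell markers chi-miR-451-5p (-2.18) and ola-miR-144 (-1.70) passed between gradual reoxygenation and normoxia (adjusted p = 0.0389 for both), their sums being 863 to 4501 CPM and 7175 to 13971 CPM, and their part in the miR-19a values was not tested. Groups of gradual reoxygenation and normoxia did not overlap for 14 of 38 members (3 higher, 11 lower), beside 21.3% of all entries. hsa-miR-25-3p was the lowest of the abundant members there, at -0.40, with 487, 663 and 459 CPM after gradual reoxygenation and 904, 565 and 675 CPM in normoxia, which overlapped.

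Between 12 h and 3 h of rapid reoxygenation, 0 of 38 members and 0% of all entries passed, and 0 members had an unadjusted p under 0.05. mdo-miR-106-5p and xtr-miR-106 had the smallest p, at 0.75 each (SE 0.43 and 0.44, adjusted p = 0.998). In library 1 of rapid reoxygenation 12 h 7 of the 10 abundant members were below their median over all libraries, and in library 2 0 of 10 were, as for dre-miR-17a-5p (52.8 and 97.2 CPM) and ola-miR-106a (41.4 and 85.2 CPM). These values enclosed all or most of the 3 h values, which were 111, 80.0 and 60.5 CPM and 78.0, 72.7 and 47.9 CPM.

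Over the 8 groups at once, 0 of 38 members and 1.5% of all entries passed. Of the members 3 had an unadjusted p under 0.05, beside 14.8% of all entries. hsa-miR-19a-3p and aca-miR-19a-3p had the smallest p, with an adjusted p of 0.246 for both. DESeq2 called 7 of 38, the 4 entries of miR-19b, the 2 of miR-19a and dre-miR-93, beside 25% of all entries. In normoxia 12 h against 0 h DESeq2 called dre-miR-93 alone of the members (0.52, adjusted p = 0.0253), beside 16.5% of all entries. Both shares of members were at or below the background of that tool.

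The intervals show what size of difference these libraries could leave out. For the 10 abundant members in the 13 comparisons of groups, 109 of 130 intervals lay within a 2-fold difference in either direction, 7 lay within 1.5-fold, and 7 left out 0. These intervals were not adjusted for the number of tests. In the same comparisons 2.16% to 21.9% of all entries had an unadjusted p under 0.05. The 7 that left out 0 were 3 of aca-miR-19a-3p, 2 of hsa-miR-19b-3p, 1 of dre-miR-19d-3p and 1 of dre-miR-93. For dre-miR-17a-5p all 13 intervals lay within 2-fold, for hsa-miR-25-3p, hsa-miR-20a-5p and hsa-miR-92a-3p 12 of 13 each, and for dre-miR-19d-3p 7 of 13.

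Ratios within a library set members against each other without the scaling to total reads. The steadiest was ola-miR-106a over dre-miR-17a-5p, with a geometric mean of 0.826, a range of 0.650 to 1.03 and an SD of 0.18 on the log2 scale over the 22 libraries. hsa-miR-20a-5p over dre-miR-17a-5p had a mean of 2.54 (SD 0.22), hsa-miR-92a-3p over dre-miR-17a-5p of 3.65 (SD 0.31) and hsa-miR-25-3p over hsa-miR-92a-3p of 2.26 (SD 0.30). For the first of these, each member alone varied more than the ratio, with an SD of 0.31 for hsa-miR-20a-5p and 0.33 for dre-miR-17a-5p. Entries of the same seed group may share reads, which can steady such a ratio, and this was not tested.

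Ratios with miR-19 entries ranged more widely in SD. dre-miR-19d-3p over hsa-miR-19b-3p had an SD of 0.27 and hsa-miR-19b-3p over hsa-miR-20a-5p of 0.30, close to the ratios above. hsa-miR-19b-3p over hsa-miR-92a-3p, miRNAs of the same mammalian transcript, had an SD of 0.47 and a range of 0.236 to 0.980, and over dre-miR-17a-5p an SD of 0.37. By group, hsa-miR-19b-3p over dre-miR-17a-5p was lowest in hypoxia 12 h, at 1.24, and highest in gradual reoxygenation 12 h, at 2.56, with values of 1.58 to 1.93 in the other 6 groups. aca-miR-19a-3p over hsa-miR-19b-3p had an SD of 0.43, and hsa-miR-25-3p over dre-miR-93, with no miR-19 entry, of 0.36. These ratios were not tested between groups.

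**Figure D4:**
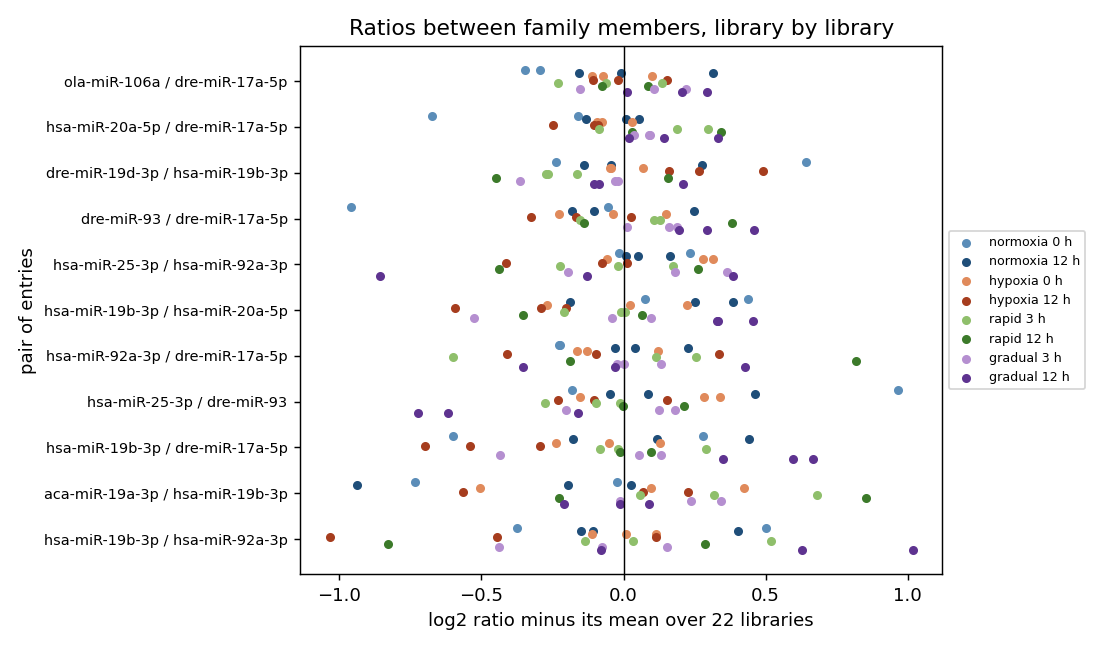
Ratios between pairs of abundant members in each of the 22 libraries, as the log2 ratio minus its mean over libraries, ordered from the smallest SD (top, ola-miR-106a over dre-miR-17a-5p, 0.18) to the largest (bottom, hsa-miR-19b-3p over hsa-miR-92a-3p, 0.47), with libraries coloured by group. The 3 libraries of gradual reoxygenation 12 h lie to the right for hsa-miR-19b-3p over dre-miR-17a-5p and those of hypoxia 12 h to the left. Libraries of other groups lie among them, such as library 2 of normoxia 12 h (ratio 2.40) and library 3 of normoxia 0 h (1.17).

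MYC activates the miR-17-92 transcript in mammalian cells and represses another set of miRNAs there, among them let-7, miR-15, miR-16, miR-26, miR-29, miR-30 and miR-34. Of the 93 tested entries of that set, 1 passed in any of the 16 tests: fru-miR-15a, lower in gradual reoxygenation 12 h than in normoxia 12 h, where 1.66% of all entries passed. In that comparison the median difference was -0.17 over the 93 entries, -0.12 over all 602 and -0.08 over the 38 members. In hypoxia against normoxia at 12 h the medians were -0.10, -0.01 and -0.03 in the same order. In normoxia 12 h against 0 h they were 0.13, -0.06 and 0.22, so that the list and the members both lay above all entries. In hypoxia 12 h against 0 h they were -0.03, -0.05 and 0.28. In rapid reoxygenation 3 h against hypoxia 0 h they were -9.96e-06, -0.02 and 0.20. Medians of the other comparisons are not listed here, and a part of MYC was not tested.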

How the data were processed

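The deposited table gives CPM values per miRNA entry and library, made by the authors. The authors' group means are in the same unit. Bowtie is named in the submitters' processing notes, without a version, and the sources used here give neither reference nor counter. Values were whole multiples of 1 read (100% of values within 0.1 read), so that reads were recovered, and entries that share sequence may share reads. Entries identical in all library columns were merged (708 removed). limma 3.58.1 in R 4.3.3 was run on log2(CPM + 1) with an intensity trend, 1 mean per group over 8 groups, and Benjamini-Hochberg adjustment over 602 entries (at least 1 CPM in at least 2 libraries). edgeR 4.0.16 and DESeq2 1.42.0 were alternatives on the recovered reads, DESeq2 giving an adjusted p for 589 entries. The code was tested on simulated data. Figures used matplotlib 3.10.9 in Python 3.11.15.

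Members, markers and the MYC-linked list were chosen with earlier results of these data known. Named entries are the most abundant of each number and arm, those past the threshold and, where none passed, the 2 with the smallest p. The entries that stand for near-copy groups, the near-copy limit, the minimum of 5 CPM and other entries named (dre-miR-19d-3p, aga-miR-92a, xtr-miR-106, those with few reads) were chosen after their values were seen. Library numbers are those of the table. The deposited means equalled the library means except in normoxia 0 h and rapid reoxygenation 12 h, the 2 groups with 2 libraries, and the reason was not tested.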

Additional observations from a re-analysis of the deposited data

How the results depend on the processing

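The number of members past the threshold was recomputed under 33 other settings, and 518 of 525 counts stayed at 0. DESeq2 gave 7 over the 8 groups, 1 for normoxia 12 h against 0 h, 6 for gradual reoxygenation 12 h against hypoxia 12 h, 6 for gradual reoxygenation 12 h against 3 h and 4 for the difference between gradual and rapid reoxygenation across times, and the cause was not tested. The other counts above 0 came without library 3 of normoxia 0 h, over the 8 groups and for normoxia 12 h against 0 h. That fit left library 2 alone in its group, so that these counts are not given. Fits that left 1 library alone in a group are also among the counts that stayed at 0, and those counts carry the same limit. The share of intervals within 2-fold was 83.8%, and 73.1% to 94.6% under the other settings. Of the 1686 other values of 52 named effects, 1672 stayed on their side of the threshold in the same direction, 14 became calls under DESeq2, and 0 turned. mze-miR-18b in gradual reoxygenation 3 h against hypoxia 0 h ranged from -2.13 (edgeR) to -0.11 (pseudocount 10).

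The library numbers gave no clear pairing: over 70 same-number pairs r was -0.47 to 0.49, and 6 of 22 libraries were closest to their own number. In 15 of the pairs r was over 0.1, and such correlations cannot exclude a paired design. With the replicate block, 0 members passed in each of the 16 tests, and 83.1% of intervals lay within 2-fold. Groups of 2 and 3 libraries limit what can be called, and low entries rest on few reads.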
